A study of Mus musculus with 65 samples.

Results

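The ATP-binding cassette (ABC) genes of the mouse were followed through blood stem cells, their progeny and the cells of the bone marrow niche. Members were all genes whose symbol is Abc followed by a letter from a to g, a number and an optional letter, which gave 49 genes among 44500 measured in the hematopoietic cells, 44381 in the niche cells and 47530 in niche cells after 5-fluorouracil (5FU). The 5FU niche values carry Ensembl IDs only and were matched through them. The 65 RNA-seq libraries, in 17 groups, came from cells that were sorted by FACS out of femurs and tibias. All groups of hematopoietic stem and progenitor cells (HSPCs) came from the LSK gate, which keeps lineage-negative cells with Sca-1 and c-Kit. The Reserve gate took Flk2- CD34- CD49b- cells (n = 4) and Primed stem cells differed from them in the gate by CD49b+ (n = 3). Short-term stem cells (ST, n = 3) were Flk2- CD34+, and multipotent progenitors (MPP, n = 4) were Flk2+ CD34+. The 5FuReserve group (n = 3) was sorted with the Reserve gate on day 3 after 5FU, a pyrimidine analog that kills cycling cells. 1 of its 3 labels writes CD49- in place of CD49b-.

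The niche cells of untreated mice comprised 10 groups. Those negative for CD45, Ter119 and CD31 by their labels were Col2.3_GFP, Cxcl12_RFP (labelled by a Cxcl12-DsRed reporter), Nestin_GFP, Ng2_RFP, Pecam_GFP and the Tomato-positive N-cadherin reporter cells of bone (Ncad_bone) and marrow (Ncad_marrow), each n = 4, and Lepr-positive cells, n = 6. Macrophages (Mac) were CD45+ F4/80+ cells without the YFP that Pf4-Cre switches on and without CD3, B220 or NK1.1. The MK group was CD45+ with that YFP, so it is defined by past or present Pf4-Cre activity and not by a surface marker of the megakaryocyte (n = 4 each). The N-cadherin reporter cells were also sorted after 5FU from bone (5Fu_Ncad_bone) and marrow (5Fu_Ncad_marrow), n = 3 each. The sources used here give neither ages nor strains, and nothing in the labels says which replicates came from separate animals. The p-values therefore rest on the spread among these libraries alone, and that spread may be technical.

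ABC proteins bind and hydrolyse ATP through a conserved cassette and most of them use the energy to move a substrate across a membrane. P-glycoprotein, which rodents make from the neighbouring genes Abcb1a and Abcb1b, the Mrp proteins of the Abcc family and Abcg2 export drugs, dyes and conjugated metabolites, and they are the textbook cause of multidrug resistance in tumour cells. Abcg2 is also the pump behind the side population, the stem-cell-rich fraction of marrow that excludes Hoechst dye. Others carry cholesterol and phospholipids (most of the Abca family, Abcg1), act in mitochondria and lysosomes (such as Abcb6, Abcb8 and Abcd4) or bring fatty acids into peroxisomes (such as Abcd2 and Abcd3). Abce1 and the Abcf proteins lack membrane domains and work on ribosomes and translation.

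Values were FPKM, fragments scaled to transcript length and to the number mapped, so levels can be compared between genes but absolute depth is unknown. Libraries held between 11649 and 14258 genes at 1 FPKM or more, and the spacing of low values put relative depth within 2.55-fold among HSPC, 5.70-fold among niche and 2.71-fold among 5FU niche libraries. Reserve cells had Kit, whose product is in the gate of all HSPC groups, at 109 ± 2.56 FPKM. Hlf, a stem cell factor outside the gate, was at 112 ± 1.95. Pecam_GFP libraries had Pecam1 at 87.1 ± 9.64 FPKM although their gate is labelled CD31-negative, CD31 being the product of Pecam1. The F4/80 transcript Adgre1 was 19.1 ± 3.83 FPKM in Mac but also 20.9 ± 3.54 in MK, and 11 neutrophil and myeloid markers summed to between 396524 and 573648 FPKM in Mac and between 87539 and 370161 in MK. The 5FuReserve libraries stood apart from the other HSPC groups: 10 B-cell markers summed to between 1517 and 1574 FPKM against 134 to 177 in Reserve, 12 T- and NK-cell markers to 354 to 431 against 14.5 to 17.8, and 11 macrophage markers to 118 to 143 against 27.1 to 35.5. The defining T-cell gene Cd3g was at 0 in every Reserve library and 113 ± 25.4 FPKM in 5FuReserve, while Kit was 30.6 ± 1.82 and Hlf 20.7 ± 3.25. The sum of 11 HSPC markers was higher, between 1357 and 1544 FPKM in 5FuReserve against 1084 to 1176 in Reserve. Of the 10 tested, 2 were called higher and 5 lower, with a median log2 fold change of -0.57. The part of these other cells in the changes after 5FU described here was not tested.

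Summed ABC expression was lower in MPP and 5FuReserve than in the other HSPC groups, and Abcg2 was the most abundant member in Reserve. Over the 49 genes the sum ran from 451 to 502 FPKM in the Reserve libraries, 450.4 to 453 in Primed, 419 to 462 in ST, 315 to 362 in MPP and 372 to 405 in 5FuReserve. The MPP and 5FuReserve ranges lay below all others, and those of Reserve and Primed overlapped. Abcg2 alone made up 21.5% of the Reserve sum and 9.31% of the MPP sum, where Abcf1 and Abcb8 exceeded it.

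In the HSPC libraries 28 of the 49 genes reached 1 FPKM in at least 3 libraries and were tested. The other 21 were Abca6, Abca8a, Abca8b, Abca9, Abca12 to Abca17, Abcb5, Abcb9, Abcb11, Abcc2, Abcc6, Abcc8, Abcc9, Abcc12, Abcg4, Abcg5 and Abcg8, of which Abcc6, Abcg5 and Abcg8 were listed at 0 in all 17 libraries. Their highest value was 2.47 FPKM, for Abcb9 in a 5FuReserve library. Each HSPC group was compared with Reserve, so the 4 comparisons share the Reserve libraries. Fold changes are differences of mean log2(FPKM + 1), with their standard error (SE), which understates changes of low genes, and a gene was called at an adjusted p under 0.05 in the limma test across all genes. With bulk libraries, fewer expressing cells and less RNA per cell cannot be told apart, here and below.

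Against Primed cells, Reserve cells differed in 1 called member. None of the 28 was higher in Primed, where 1.61% of all tested genes were, and 1 was lower, against 2.26% of all genes; 5 of the 28 had an unadjusted p under 0.05. In ST 1 was higher and 4 lower, against 6.52% and 6.21% of all genes. The MPP comparison called 3 higher and 12 lower, against 12.7% and 28.3%, and 5 and 10 after median-of-ratios scaling, which moved the median of all genes from -0.20 to -0.02. After 5FU 2 were higher and 16 lower, against 25.5% and 22.8%. The median log2 fold change of the 28 was -0.02 in Primed, -0.20 in ST, -0.29 in MPP and -0.58 in 5FuReserve, beside medians over all genes of 0.00, -0.02, -0.20 and -0.03. That left Primed, ST and MPP medians within 0.2 of those of all genes, and 5FuReserve as the comparison in which the members lay furthest below the rest.

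**Figure D1:**
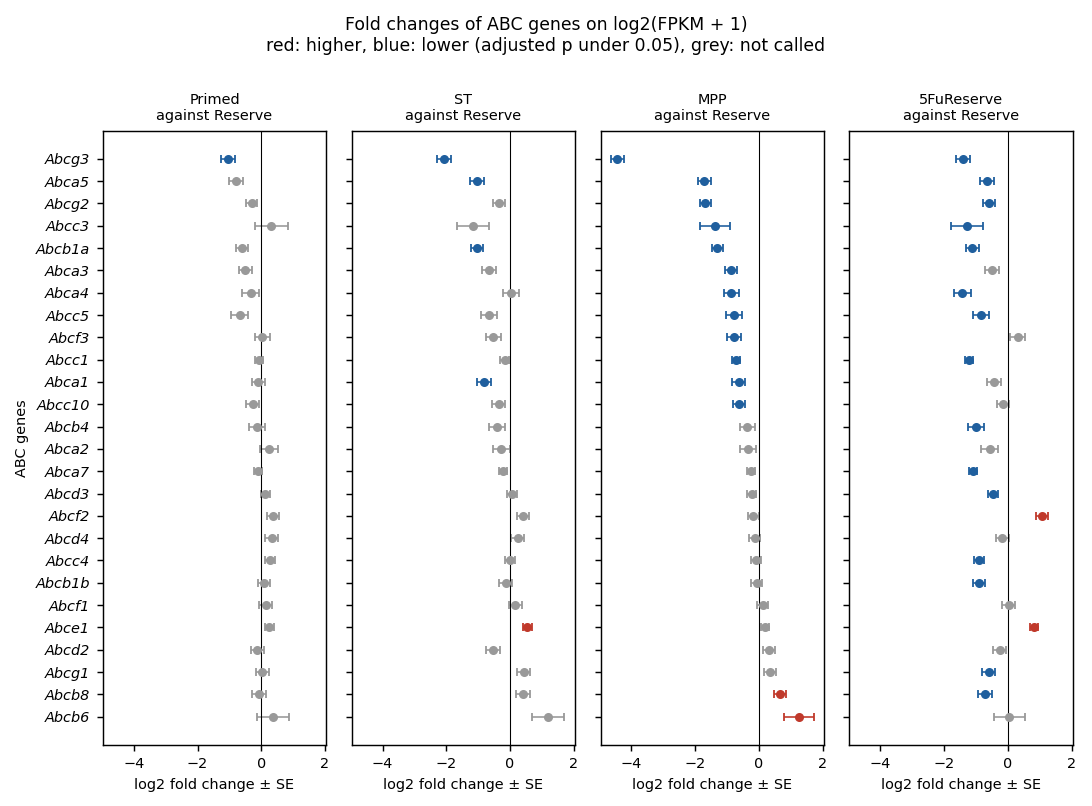
Log2 fold change on log2(FPKM + 1) with its SE for tested ABC genes in each HSPC group against Reserve, ordered by the MPP comparison; red marks genes called higher, blue genes called lower, grey genes not called. Abcg3 is blue in all 4 panels. On the list of drug exporters, Abcc4, Abcb1b and Abcb4 are blue only in the 5FuReserve panel. Abcf2 and Abce1 are the 2 red points in that panel.

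Abcg2, whose subunits pair into the Hoechst and drug efflux pump, was high in Reserve and low in MPP. Its gene lies on chromosome 6 (mm10, 58584523 to 58695676, plus strand). The Reserve libraries had 117, 97.8, 98.1 and 99.5 FPKM and the MPP libraries 22.7, 34.5, 33.9 and 36.5. Every MPP library was below every Reserve library, and the log2 fold change was -1.68 ± 0.17 (SE; adjusted p = 1.95e-06). Primed libraries had 91.1, 78.3 and 80.3 FPKM and ST libraries 57.8, 97.1 and 92.7. All of these lay below the lowest Reserve value of 97.8, by less than 1 FPKM for 1 ST library, and neither difference was called, at -0.30 ± 0.18 (SE; adjusted p = 0.42) and -0.35 ± 0.18 (SE; adjusted p = 0.245). In 5FuReserve the values were 70.8, 61.3 and 71.8 FPKM, between those of ST and MPP on average and all below Reserve. That change, -0.59 ± 0.18 (SE; adjusted p = 0.0134), missed the threshold without 5FuReserve replicate 2 (adjusted p = 0.059). In the order of mean levels from Reserve through Primed, ST and 5FuReserve to MPP, Primed and ST overlapped, as did ST and 5FuReserve.

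Abcg3 had the largest fold change of the tested members in Primed, ST and MPP. It is a rodent paralog of Abcg2 whose substrate is not established, and it lies on chromosome 5 (mm10, 104935057 to 104982718, minus strand). The Reserve libraries had 38.9, 37.9, 40.2 and 36.2 FPKM, Primed 16.8, 17.5 and 20.1, ST 5.6, 8.1 and 12.6 and MPP 1.12, 0.351, 1.07 and 0.765. The 4 groups did not overlap at any step. Against Reserve the log2 fold change was -1.04 ± 0.22 (SE; adjusted p = 0.0156) in Primed, -2.07 ± 0.22 (SE; adjusted p = 1.69e-05) in ST and -4.45 ± 0.20 (SE; adjusted p = 7.83e-10) in MPP. It was the sole member called between Primed and Reserve, and that call was lost with a pseudocount of 0.1 (adjusted p = 0.083) and without Primed replicate 2 (adjusted p = 0.075). After 5FU the libraries had 11.5, 16.9 and 13.4 FPKM, all below Reserve and within the span of Primed and ST, a change of -1.41 ± 0.22 (SE; adjusted p = 9.21e-05).

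The upstream sequences of this pair are printed because Abcg2 was the most abundant member in Reserve and Abcg3 had the largest fold change between Reserve and MPP. RefSeq (GRCm38.p6, the assembly of mm10) lists promoter windows for 37 of the 49 genes; those without an entry include Abca6, Abcb8, Abcc1, Abcc3, Abcc6, Abcc8, Abcd2, Abcd4, Abcg1 and Abcg4. It gives Abcg2 3 start sites and Abcg3 1. FPKM per gene do not say which start was used. Each line holds the 250 bases before a start, 5′ to 3′ on the strand of the gene, with capitals for matches to 5 motifs on either strand: CCAAT (the box of that name), GGGCGG (the GC box), GCGTG (the core of the site bound by Ahr), TGACNNNGC (the core of the antioxidant element bound by Nfe2l2) and TATAAA.
Abcg2, the first start, chr6:58584283-58584532, plus strand: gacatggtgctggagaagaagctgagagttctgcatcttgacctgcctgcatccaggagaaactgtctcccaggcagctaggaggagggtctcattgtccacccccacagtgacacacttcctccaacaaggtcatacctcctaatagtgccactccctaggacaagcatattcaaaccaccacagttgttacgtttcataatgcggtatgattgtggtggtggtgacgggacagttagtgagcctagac
Abcg2, the second start, chr6:58596422-58596671, plus strand: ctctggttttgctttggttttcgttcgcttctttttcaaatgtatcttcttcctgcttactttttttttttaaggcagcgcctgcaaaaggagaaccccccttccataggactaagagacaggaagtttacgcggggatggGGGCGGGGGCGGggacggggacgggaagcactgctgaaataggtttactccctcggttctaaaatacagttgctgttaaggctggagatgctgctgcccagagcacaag
Abcg2, the third start, chr6:58640296-58640545, plus strand: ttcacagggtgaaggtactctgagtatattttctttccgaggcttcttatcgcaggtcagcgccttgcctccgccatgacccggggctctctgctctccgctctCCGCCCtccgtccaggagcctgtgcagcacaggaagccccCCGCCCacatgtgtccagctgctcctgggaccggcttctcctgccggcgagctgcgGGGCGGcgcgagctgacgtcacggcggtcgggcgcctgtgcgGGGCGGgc
Abcg3, chr5:104982718-104982967, minus strand: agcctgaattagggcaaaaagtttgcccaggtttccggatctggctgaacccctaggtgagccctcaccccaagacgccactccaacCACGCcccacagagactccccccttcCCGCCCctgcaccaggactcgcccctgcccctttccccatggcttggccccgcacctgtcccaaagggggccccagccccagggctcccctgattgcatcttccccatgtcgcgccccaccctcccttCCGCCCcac
The first Abcg2 window held none of the 5 motifs. GGGCGG matched 2 times in the second window, side by side, and 4 times in the third. The Abcg3 window held GGGCGG 2 times and GCGTG 1 time. No printed match overlapped another. Among 32851 RefSeq windows of the same length, 32.7% held GGGCGG, 33.8% CCAAT, 28.2% GCGTG, 10.2% TGACNNNGC and 12.4% TATAAA.

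**Figure D2:**
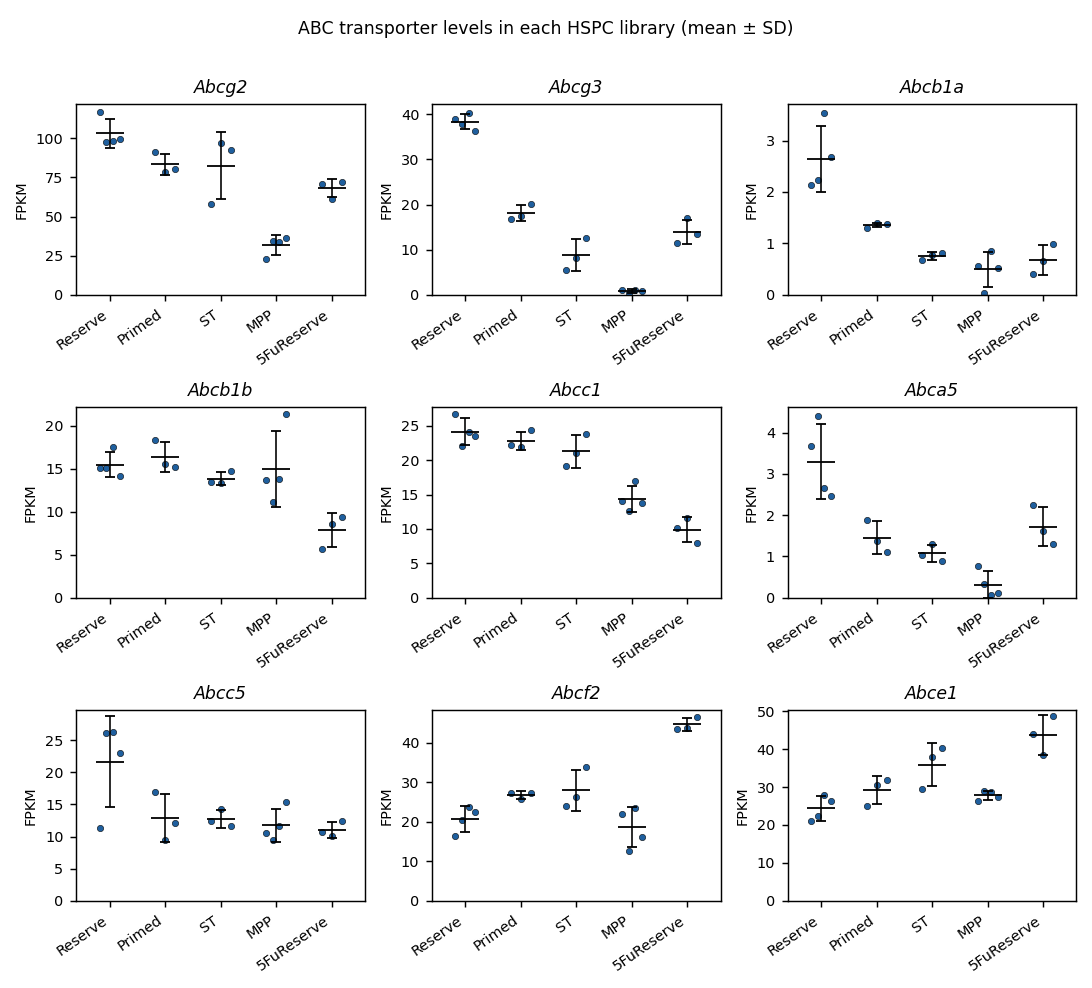
FPKM of 9 ABC genes in every HSPC library (points), with the group mean and SD (bars), on linear axes from 0. Abcg3 steps down from a mean of 38.3 in Reserve to 0.828 in MPP, Abcb1a is highest in Reserve while Abcb1b overlaps among untreated groups and is lower in 5FuReserve, and the means of Abcf2 and Abce1 are highest in 5FuReserve.

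Among the drug exporters some were lower in ST or MPP as well as after 5FU, others were called after 5FU alone, and Abcc10 was called in MPP alone. Of the 12 on the list, Abcg2 included, 9 were tested in HSPCs: none changed in Primed, 1 was lower in ST, 6 in MPP (4 after scaling) and 8 in 5FuReserve, and none was higher in any of the 4, with or without scaling. Of all genes 2.26% were lower in Primed, 6.21% in ST, 28.3% in MPP and 22.8% in 5FuReserve. Abcb5 did not exceed 0.043 FPKM and Abcc2 0.215, and Abcc11 was not analysed here. The list also holds Abcb4, a phosphatidylcholine floppase, so drug exporter here and below means a gene on the list.

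The P-glycoprotein genes Abcb1a and Abcb1b and the phosphatidylcholine floppase Abcb4 lie in a row on chromosome 5 (mm10, 8660077 to 8748575, 8798147 to 8866315 and 8893717 to 8959231, all on the plus strand). Abcb1a and Abcb1b are related genes, and some reads may have been split between them. That was not tested, so both levels are uncertain. Abcb1a had 2.13, 2.23, 3.53 and 2.67 FPKM in Reserve, 1.31, 1.39 and 1.38 in Primed, 0.67, 0.777 and 0.817 in ST and 0.557, 0.042, 0.85 and 0.517 in MPP. Reserve did not overlap with any other group. The change was -1.04 ± 0.20 (SE; adjusted p = 0.00233) in ST and -1.30 ± 0.18 (SE; adjusted p = 5.31e-05) in MPP, and not called in Primed (-0.61 ± 0.20 SE, adjusted p = 0.111). In 5FuReserve Abcb1a was 0.407, 0.647 and 0.986 FPKM, also below all Reserve libraries, with -1.11 ± 0.20 (SE; adjusted p = 0.000294).

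Abcb1b was the more abundant of the pair and did not follow it. Its levels were 15.1, 15.1, 17.5 and 14.1 FPKM in Reserve, 18.4, 15.6 and 15.2 in Primed, 13.5, 13.4 and 14.7 in ST and 13.7, 11.2, 13.8 and 21.4 in MPP, each range overlapping that of Reserve. The fold changes of 0.08, -0.14 and -0.07 were not called (adjusted p of 0.904, 0.709 and 0.772). After 5FU it was 5.65, 8.52 and 9.44 FPKM, below every other HSPC library, at -0.91 ± 0.19 (SE; adjusted p = 0.00116). Abcb4 had the same calls as Abcb1b: 3.34, 4.05, 5.31 and 4.53 FPKM in Reserve, 4.23, 3.85 and 3.47 in Primed, 2.48, 3.62 and 2.87 in ST and 2.63, 2.71, 3.9 and 3.17 in MPP were not told apart (log2 fold changes of -0.12, -0.41 and -0.37). The 5FuReserve values of 0.551, 2.86 and 2.07 FPKM lay below the Reserve range, at -0.99 ± 0.25 (SE; adjusted p = 0.00473).

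Among the Mrp genes, Abcc1 (Mrp1, which exports glutathione conjugates and leukotriene C4) fell in both MPP and 5FuReserve. Reserve libraries had 26.8, 22.1, 24.1 and 23.5 FPKM, Primed 22.2, 21.9 and 24.3, ST 19.1, 21 and 23.8 and MPP 14, 12.6, 17 and 13.8. MPP lay wholly below the 3 stem cell groups, at -0.72 ± 0.12 (SE; adjusted p = 0.000324), while Primed and ST overlapped Reserve (-0.08 and -0.17, adjusted p of 0.848 and 0.465). In 5FuReserve Abcc1 was 10.1, 11.6 and 7.98 FPKM, lower than in every other HSPC library, at -1.22 ± 0.13 (SE; adjusted p = 3.22e-06). No member had a smaller adjusted p after 5FU.

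Abcc4 (Mrp4) and Abcc5 (Mrp5) export cyclic nucleotides and nucleotide analogs. Abcc4 was 6.84, 5.01, 5.23 and 5.22 FPKM in Reserve, 6.35, 6.86 and 7.45 in Primed, 5.1, 4.96 and 6.46 in ST and 6.53, 3.9, 4.97 and 5.29 in MPP, with overlap throughout and no call (0.27, -0.01 and -0.10). After 5FU it was 2.41, 2.21 and 2.9 FPKM, below all 14 other HSPC libraries, at -0.90 ± 0.16 (SE; adjusted p = 0.000336). Abcc5 was 11.4, 26.1, 26.2 and 23 FPKM in Reserve, where replicate 1 sat apart from the other 3. The other groups had 16.9, 9.54 and 12.1 FPKM in Primed, 12.4, 14.2 and 11.6 in ST, 10.5, 9.44, 11.6 and 15.5 in MPP and 10.7, 10.1 and 12.5 in 5FuReserve. All of them overlapped Reserve through that 1 library. Abcc5 was called lower in MPP (-0.79 ± 0.24 SE, adjusted p = 0.0169) and 5FuReserve (-0.85 ± 0.26 SE, adjusted p = 0.0143) and not in Primed (-0.68, adjusted p = 0.186) or ST (-0.66, adjusted p = 0.121). Without Reserve replicate 1 the Primed difference was called (adjusted p = 0.019), as was that in ST (0.00702). The MPP call was lost under scaling (adjusted p = 0.0689), with only the compared groups (0.0511) and without Reserve replicate 2 (0.0502) or 3 (0.0572), and the 5FU call without 5FuReserve replicate 2 (0.0523).

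Abcc3 and Abcc10, exporters of conjugates and of taxanes among other drugs, gave less stable calls. Abcc3 was 4.05, 3.62, 4.39 and 5.84 FPKM in Reserve and 5.02, 6.34 and 6 in Primed, but 0.583, 0.483 and 4.93 in ST, 0.947, 3.72, 0.948 and 0.034 in MPP and 0.334, 1.9 and 1.89 in 5FuReserve. One library each of ST and MPP reached the Reserve range. It was called lower in MPP, -1.39 ± 0.47 (SE; adjusted p = 0.0284), and 5FuReserve, -1.28 ± 0.51 (SE; adjusted p = 0.0496), but not in ST (-1.17 ± 0.51 SE, adjusted p = 0.161) or Primed (0.32). The MPP call was lost without Reserve replicate 3 or 4 or MPP replicate 1, 3 or 4, and the 5FU call without any 1 of its 7 libraries (adjusted p from 0.0602 to 0.212). Abcc10 was 1.52, 1.89, 1.1 and 0.983 FPKM in Reserve and 0.299, 0.999, 0.441 and 0.467 in MPP, overlapping in 1 library of each, at -0.62 ± 0.18 (SE; adjusted p = 0.0151). The values in Primed (0.83, 1.07 and 0.953), ST (0.965, 1.27 and 0.365) and 5FuReserve (1.1, 1.2 and 1.05) overlapped Reserve and were not called (-0.27, -0.36 and -0.15).

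Cholesterol and lipid transporters were lower where called, except that Abcg1 was called higher in MPP after scaling (0.57, adjusted p = 0.0377). Of 16 on the list 7 were tested, with none called in Primed, 2 lower in ST, 4 in MPP and 4 in 5FuReserve, against 0, 3, 4 and 6 lower after scaling. Before scaling, 2.26% of all genes were lower in Primed, 6.21% in ST, 28.3% in MPP and 22.8% in 5FuReserve. Abca5, a lysosomal cholesterol transporter, was 3.67, 4.4, 2.66 and 2.46 FPKM in Reserve, 1.88, 1.37 and 1.11 in Primed, 1.04, 1.3 and 0.88 in ST, 0.771, 0.331, 0.066 and 0.113 in MPP and 2.24, 1.62 and 1.3 in 5FuReserve. Every library of the other 4 groups was below every Reserve library. The change was -1.03 ± 0.22 (SE; adjusted p = 0.00489) in ST, -1.71 ± 0.20 (SE; adjusted p = 1e-05) in MPP and -0.65 ± 0.22 (SE; adjusted p = 0.0219) in 5FuReserve, and -0.80 ± 0.22 (SE; adjusted p = 0.0555) in Primed, short of the threshold. With a pseudocount of 0.1 the ST (adjusted p = 0.0526) and 5FU (0.135) calls were lost, and the 5FU call also without Reserve replicate 1 or 2 or 5FuReserve replicate 2 or 3.

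Abca7, a phospholipid exporter active in phagocytes, changed after 5FU alone among these comparisons. It was 6.53, 7.06, 5.48 and 6.85 FPKM in Reserve and 2.6, 2.53 and 2.35 in 5FuReserve, without overlap, at -1.09 ± 0.13 (SE; adjusted p = 8.24e-06). Its log2 fold changes were -0.10, -0.22 and -0.24 in Primed, ST and MPP, none called. Abca4, known as the retinoid flippase of photoreceptors, was 1.5, 1.9, 2.52 and 2.82 FPKM in Reserve, 0.345, 1.23, 1.25 and 0.3 in MPP and 0, 0.229 and 0.307 in 5FuReserve. Both groups lay below Reserve, at -0.87 ± 0.24 (SE; adjusted p = 0.00998) and -1.42 ± 0.26 (SE; adjusted p = 0.000415). Abca1 and Abcg1 pass cholesterol to lipoproteins and are textbook targets of the LXR receptors. Abca1 was lower in ST (-0.83 ± 0.22 SE, adjusted p = 0.0199) and MPP (-0.63 ± 0.20 SE, adjusted p = 0.0202), where leaving out ST replicate 1 or 2 or MPP replicate 1 or 2 ended the call, and Abcg1 was lower in 5FuReserve (-0.61 ± 0.20 SE, adjusted p = 0.024), a call lost without Reserve replicate 3 or 5FuReserve replicate 2. Abca3, a lamellar body lipid transporter, was lower in MPP at -0.88 ± 0.19 (SE; adjusted p = 0.00225).

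Abcb8 and Abcb6, mitochondrial transporters, were called higher in MPP; scaling added Abce1 and Abcg1. Abcb8 was 32.1, 26.3, 30.7 and 32.1 FPKM in Reserve, 70.9, 43.2, 42 and 42.8 in MPP and 22.7, 14.7 and 17.4 in 5FuReserve. The 3 groups did not overlap, with 0.66 ± 0.20 (SE; adjusted p = 0.0139) in MPP and -0.72 ± 0.21 (SE; adjusted p = 0.0118) after 5FU, the latter lost without 5FuReserve replicate 2 (adjusted p = 0.0652). Abcb6, a porphyrin transporter, was 2.38, 4.49, 1.87 and 3.8 FPKM in Reserve and 5.91, 14.1, 7.01 and 8.94 in MPP, at 1.26 ± 0.46 (SE; adjusted p = 0.0413). The groups did not overlap, but the Abcb6 call was lost without any 1 of 6 of the 8 libraries. Abcd4, which brings cobalamin out of lysosomes, was not called in any HSPC comparison, while its partners moved: Lmbrd1 was lower in MPP (-1.25) and Mmachc higher (0.62).

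The peroxisomal fatty acid transporters Abcd2 and Abcd3 were not called in Primed, ST or MPP. Abcd3 was 17.9, 18, 22.7 and 22.6 FPKM in Reserve and 12.5, 17.1 and 13.9 in 5FuReserve, without overlap, at -0.46 ± 0.15 (SE; adjusted p = 0.0212). That call ended without any 1 of 4 of the 7 libraries, and Abcd2 was not called after 5FU.

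Of the 4 proteins without membrane domains 2 were higher after 5FU and none was lower, where 25.5% of all genes were higher and 22.8% lower. Abcf2 was 16.4, 20.3, 23.7 and 22.5 FPKM in Reserve and 43.6, 43.8 and 46.6 in 5FuReserve, with no overlap and 1.08 ± 0.19 (SE; adjusted p = 0.000248). Abce1, which splits ribosomes after termination, was 21, 22.2, 28 and 26.3 FPKM in Reserve, 29.5, 37.9 and 40.2 in ST and 44.1, 38.4 and 48.7 in 5FuReserve. Both groups were above the whole Reserve range, at 0.54 ± 0.13 (SE; adjusted p = 0.0154) in ST and 0.82 ± 0.13 (SE; adjusted p = 0.000164) after 5FU. The ST call was lost without ST replicate 2 or 3. Abcf3 was lower in MPP (-0.77 ± 0.22 SE, adjusted p = 0.011), and Abcf1, a partner of initiation factor eIF2, was called in none of the 4 comparisons, with log2 fold changes from 0.03 to 0.16.

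Genes that act beside the exporters were counted from lists, and those named were picked after their values were seen. Of 35 tested genes of glutathione and conjugation, 3 were higher and 22 lower in MPP, 3 and 4 in ST, 0 and 1 in Primed, and 10 and 7 in 5FuReserve. Of all genes 12.7% were higher and 28.3% lower in MPP, and 25.5% and 22.8% in 5FuReserve, so the 5FuReserve counts lie near those of all genes. Scaling made them 8 higher and 9 lower, which turns their balance, and the MPP counts 4 and 20. Sult1a1, a sulfotransferase that conjugates phenols, was 76.3 ± 10.8 FPKM in Reserve, 18.9 ± 1.27 in Primed, 7.07 ± 0.642 in ST and 1.72 ± 0.207 in MPP (SD). It was the 1 gene of that list called in Primed, at -1.95 ± 0.12 (SE; adjusted p = 5.45e-07). Of 14 aldehyde dehydrogenases, 1 was higher and 6 lower in MPP and 1 and 3 in 5FuReserve, with none called in Primed or ST; scaling made this 2 and 4 in MPP, 1 and 4 in 5FuReserve and 1 lower in ST. Aldh1a1, whose activity marks stem cells in dye assays, was 27.9 ± 6.51 FPKM in Reserve and 0.716 ± 0.756 in MPP.

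Uptake carriers bring drugs and nucleosides into the cell. Of 11 tested, 2 were higher in Primed, 3 in ST, 5 in MPP and 3 in 5FuReserve, and none was lower in any of the 4, also after scaling, which called 6 in MPP. Of all genes 1.61% were higher in Primed, 6.52% in ST, 12.7% in MPP and 25.5% in 5FuReserve, so the count in 5FuReserve lies near that of all genes. Slc29a1, the nucleoside transporter Ent1, was 22.3 ± 3.64 FPKM in Reserve, 37.4 ± 6.1 in MPP and 58.7 ± 2.55 in 5FuReserve, with 0.72 ± 0.14 (SE; adjusted p = 0.0008) and 1.37 ± 0.15 (SE; adjusted p = 3.13e-06). The organic cation carrier Slc22a3 rose in all 4 comparisons, from 0.77 in 5FuReserve to 2.22 in ST. Of 17 tested regulators of ABC genes, 0 were higher and 1 lower in Primed, 1 and 2 in ST, 1 and 8 in MPP and 4 and 6 in 5FuReserve. Ahr, the xenobiotic receptor, was lower in Primed (-1.41 ± 0.28 SE, adjusted p = 0.0123), ST (-1.13) and MPP (-1.58). Of 11 LXR targets, 1 was lower in Primed, 2 in ST and 5 in MPP, where 2 were higher, and 3 rose and 3 fell after 5FU. Of 11 tested partners of ABC proteins, 1 was higher and 2 lower in Primed and in ST, 2 and 7 in MPP, and 6 and 0 in 5FuReserve. The shares of all genes called lower were 2.26% in Primed, 6.21% in ST, 28.3% in MPP and 22.8% in 5FuReserve. Beside these and the shares called higher, the LXR target counts in 5FuReserve lie near those of all genes. So does the count of regulators called higher there. Scaling made the regulators 3 and 8 in 5FuReserve, the LXR targets 2 lower in Primed and 2 higher and 4 lower in MPP, and the partners 0 and 2 in Primed, 2 and 6 in MPP and 6 and 1 in 5FuReserve. The peptide transporters Tap1 and Tap2, ABC genes under other symbols, were called in none of the 4; scaling made 1 of them higher in MPP and 1 lower in 5FuReserve.

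Marker lists moved in both directions after 5FU. Of all genes 25.5% were higher and 22.8% lower. Of 10 B-cell markers tested, 10 were higher than in Reserve, of 12 T- and NK-cell markers 10, and of 10 macrophage markers 8, with 1 macrophage marker lower. Blk, Pax5 and Vpreb3 were at 0 in every Reserve, Primed and ST library, and Cd3e, Cd3g and Ncr1 in every Reserve library. Such markers may have passed the filter only through groups where they are high, so their calls may not be independent of it. Of 9 endothelial markers 5 were higher and 3 lower, and that list summed to between 102 and 119 FPKM against 73.4 to 87.0 in Reserve. Neutrophil markers were higher for 4 and lower for 5 of 11, and megakaryocyte markers for 2 and 5 of 10. Kcnj8, the channel subunit that pairs with Abcc9, was 3.68 ± 0.882 FPKM after 5FU against 0.0025 ± 0.005 in Reserve. Kcnj8 was at 0 in 3 of 4 Reserve libraries and at its highest in 5FuReserve among the HSPC groups. Abcc9 itself reached at most 1.07 FPKM in HSPCs and was not tested there. The part of other cells in the 16 falls after 5FU was not tested.

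Across the niche nearly all tested members differed among the populations, as nearly all tested genes did. Of the 49 genes 37 passed the filter and 35 of these differed among the 10 populations by limma's moderated F test, where 89% of all tested genes did. The 2 without a call were Abcb9 (adjusted p = 0.151) and Abcc1 (adjusted p = 0.189), the latter with group means between 3.53 ± 1.21 in Pecam_GFP and 6.7 ± 0.851 in Cxcl12_RFP. The 12 genes below the filter reached at most 0.658 FPKM. Summed ABC expression ran from 758 to 958 FPKM in Pecam_GFP, from 309 to 518 over the 7 stromal populations, from 273 to 422 in MK and from 221 to 224 in Mac.

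**Figure D3:**
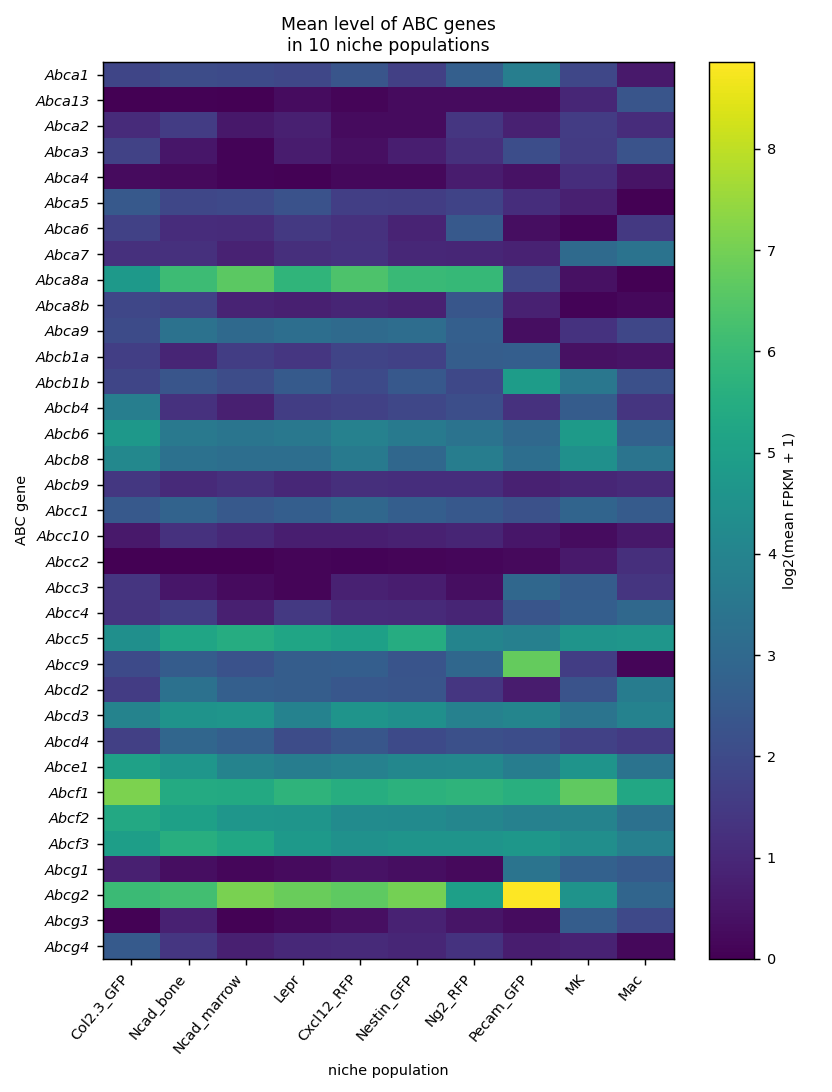
Mean level, log2(mean FPKM + 1), of tested ABC genes (rows) in the 10 niche populations of untreated mice (columns; n = 4 each, Lepr n = 6). Abcg2 reaches its brightest cell in Pecam_GFP, Abcc9 stands out there too, and Abca8a is bright in the 7 stromal columns and dark in MK and Mac.

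Among the 10 niche groups Abcg2 was highest in the endothelial reporter cells, Pecam_GFP. In Pecam_GFP 10 members were higher and 14 lower than the mean of the 7 CD45-negative stromal populations, where 21.4% and 30.9% of all genes were. Abcg2 was 413, 395, 607 and 439.6 FPKM in Pecam_GFP, above every other niche library. It was 135 ± 16 FPKM in Ncad_marrow, 128 ± 18.2 in Nestin_GFP, 114 ± 14.4 in Lepr, 101 ± 7.57 in Cxcl12_RFP, 71.1 ± 13.3 in Ncad_bone, 65.4 ± 7.92 in Col2.3_GFP and 31.3 ± 6.56 in Ng2_RFP, with 22.2 ± 17.1 in MK and 6.39 ± 0.287 in Mac (SD). The ranges of Ncad_marrow, Nestin_GFP, Lepr and Cxcl12_RFP overlapped, as did those of Ncad_bone and Col2.3_GFP. Pecam_GFP against the stromal mean gave 2.44 ± 0.22 (SE; adjusted p = 1.31e-11), and Abcg2 made up 57.2% of the ABC sum there.

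Abcc9, the sulfonylurea receptor subunit that forms ATP-sensitive potassium channels with Kcnj8, followed Abcg2 in Pecam_GFP. It lies on chromosome 6 (mm10, 142587862 to 142702315, minus strand). Pecam_GFP libraries had 127, 130.1, 101 and 72.4 FPKM and no other niche library exceeded 7.53. The log2 fold change was 4.27 ± 0.23 (SE; adjusted p = 8.61e-18), and Kcnj8 was 218 ± 69.2 FPKM there. Abcb1b was 33.4, 32.9, 22.7 and 27.1 FPKM in Pecam_GFP, above every other niche library, at 2.75 ± 0.15 (SE; adjusted p = 8.6e-18). Abcc3 (2.27 ± 0.32 SE, adjusted p = 1.88e-07), Abcc4 (1.17 ± 0.15 SE, adjusted p = 2.25e-08) and Abcb1a (1.27 ± 0.46 SE, adjusted p = 0.0206) were higher too, although the Abcb1a call ended without Pecam_GFP replicate 2 or 3.

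The cholesterol exporters Abcg1 and Abca1 were raised in Pecam_GFP together. Abcg1 was 13.6, 11, 6.66 and 7.42 FPKM there and at most 1.16 in any stromal library, at 3.02 ± 0.13 (SE; adjusted p = 5.25e-21). Abca1 was 16.7, 12.8, 12.4 and 9.83 FPKM against 4.89 to 6.6 in Ng2_RFP, the highest of the stromal groups, at 1.72 ± 0.13 (SE; adjusted p = 1.01e-13). Abcg1 may have passed the filter only through groups outside the stroma, so its tests against the stromal mean may not be independent of it. Lower in Pecam_GFP were Abca8a (-4.38 ± 0.23 SE, adjusted p = 1.67e-18), Abca9 (-2.59 ± 0.13 SE, adjusted p = 3.25e-19) and Abcc5 (-1.12 ± 0.12 SE, adjusted p = 1.25e-09). The drug exporters Abcb4 (-0.58, adjusted p = 0.0172), Abcc1 (-0.46, adjusted p = 0.0351) and Abcc10 (-0.34, adjusted p = 0.0442) were called lower, calls that 3 or more single libraries each could end. Abcc2 was not called (0.12). Against the same stromal mean, 10 of 10 endothelial markers were higher in Pecam_GFP and 10 of 10 stromal markers lower, but 7 of 11 HSPC, 6 of 10 megakaryocyte, 6 of 11 neutrophil and 6 of 10 B-cell markers were higher too, with 1 B-cell marker lower. HSPC markers summed to between 1035 and 1304 FPKM there and neutrophil markers to between 14609 and 44421. Their part in the Pecam_GFP values was not tested.

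**Figure D4:**
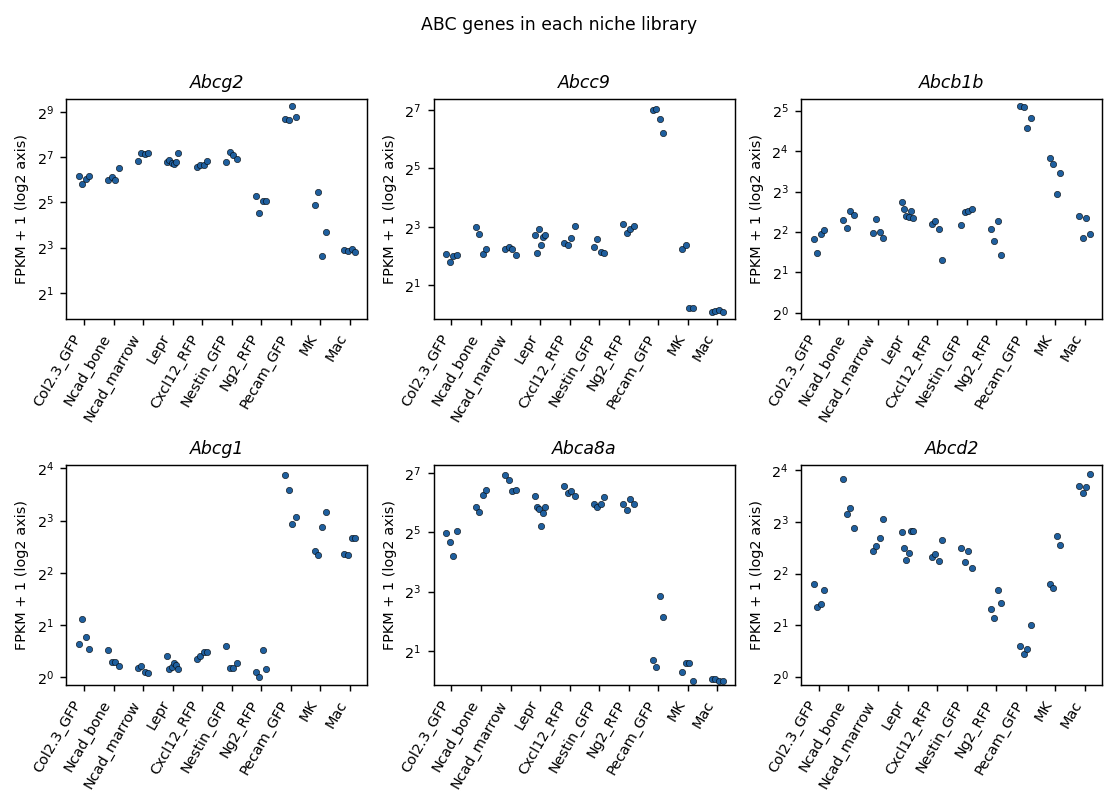
FPKM + 1 on a log2 axis for 6 ABC genes in every library of the 10 niche populations (points). Pecam_GFP points lie above all others for Abcg2, Abcc9 and Abcb1b, Abca8a separates the 7 stromal populations from Pecam_GFP, MK and Mac, and MK libraries spread widely for Abcg2 and Abcc9.

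Mac libraries had little Abcg2 and more of Abca7, Abca13 and the peroxisomal Abcd2. Of 37, 10 were higher and 18 lower than the stromal mean, where 23.2% and 43.2% of all genes were; scaling made this 12 and 13 as the median of all genes moved from -0.29 to -0.13. Abca7 was 9.22, 11.4, 9.69 and 6.92 FPKM, and Abca13 3.59, 4.49, 3.56 and 4.79, both above every stromal library, at 2.26 ± 0.14 (SE; adjusted p = 3.03e-16) and 2.20 ± 0.12 (SE; adjusted p = 3.05e-18). Abcc4 was 7.58, 5.94, 7.13 and 7.05 FPKM, at 1.82 ± 0.15 (SE; adjusted p = 3.28e-13). Abcd2 was 12.1 ± 1.45 FPKM (1.39), and Abcg1 (2.17 ± 0.13 SE, adjusted p = 4.73e-17) and Abcc2 (1.11 ± 0.11 SE, adjusted p = 1.86e-11) were higher as well. Abcc2 did not pass the filter in fits of Pecam_GFP or MK with the stroma alone. It was admitted through the Mac libraries, so its test in Mac is not independent of the filter. Abca13 may likewise have been admitted only through groups where it is high, so its test in Mac may not be independent either. Abcg2 was 6.48, 6.28, 6.74 and 6.07 FPKM, below every stromal library, at -3.51 ± 0.22 (SE; adjusted p = 4.54e-16). Abca8a (-5.89 ± 0.23 SE, adjusted p = 1.66e-22), Abcc9 (-2.33 ± 0.23 SE, adjusted p = 6.67e-11) and Abca5 (-1.85 ± 0.23 SE, adjusted p = 8.43e-09) were lower. Abcc5 (-0.32, adjusted p = 0.0239), Abcb4 (-0.52, adjusted p = 0.0259) and Abcc10 (-0.33, adjusted p = 0.0438) lost their calls under scaling (adjusted p of 0.966, 0.172 and 0.197). Abcc1, Abcb1a and Abcc3 were not called (-0.09, -0.95 and 0.59), nor was Abcb1b (adjusted p = 0.984). A pseudocount of 0.1 made Abcb1a lower (adjusted p = 0.0339) and scaling made Abcc3 higher (0.0375). Against the stromal mean, 11 of 11 neutrophil markers were higher in Mac, while of 11 macrophage markers 3 were higher and 1 lower. The part of the neutrophil transcripts of the Mac libraries, given above, in these values was not tested.

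In MK 18 members were higher and 14 lower than the stromal mean, where 29.6% and 35.9% of all genes were. Abca7 was 6.51, 4.78, 9.43 and 8.78 FPKM (1.95 ± 0.14 SE, adjusted p = 2.86e-14), Abcg1 4.32, 4.07, 6.32 and 7.98 (2.35 ± 0.13 SE, adjusted p = 6.96e-18) and Abcg3 7.13, 6.97, 2.91 and 3.57 (2.18 ± 0.21 SE, adjusted p = 3.27e-11), each above every stromal library. Abcg1 and Abcg3 may have passed the filter only through groups outside the stroma, so their tests may not be independent of it. The drug exporters Abcb1b (1.33 ± 0.15 SE, adjusted p = 1.35e-09), Abcc3 (1.79 ± 0.32 SE, adjusted p = 8.24e-06), Abcc4 (1.47 ± 0.15 SE, adjusted p = 8.96e-11), Abcb4 (0.66 ± 0.21 SE, adjusted p = 0.00576) and Abcc2 (0.46 ± 0.11 SE, adjusted p = 0.000254) were higher, the Abcb4 call ending without MK replicate 2. Abcc5 (-0.39, adjusted p = 0.00614), Abcc10 (-0.57, adjusted p = 0.000833) and Abcg2 (-2.23, adjusted p = 9.02e-11) were lower, and Abcb1a and Abcc1 were not called (-1.01 and 0.12), Abcb1a being called lower with a pseudocount of 0.1 (adjusted p = 0.0291). The MK libraries did not resemble each other: Abcg2 was 28.2, 43.3, 5.23 and 12 FPKM and Abcc9 3.76, 4.23, 0.175 and 0.157, with both genes highest in replicates 1 and 2. Endothelial markers summed to between 17.9 and 111 FPKM across the 4, and 10 megakaryocyte markers to between 6072 and 38825. Against the stromal mean, 11 of 11 neutrophil, 11 of 11 T- and NK-cell, 10 of 11 macrophage and 9 of 10 B-cell markers were higher too. In the last 2 lists 1 marker each was lower. Their part in these values was not tested. Abca8a (-5.56 ± 0.23 SE, adjusted p = 1.69e-21), Abca9 (-1.64 ± 0.13 SE, adjusted p = 1.05e-13), Abca8b (-1.26) and Abca5 (-1.24) were lower in MK.

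The stromal populations shared high Abca8a, a lipid transporter of little-known substrate on chromosome 11 (mm10, 110025634 to 110095978, minus strand). Its mean was 99 ± 18.2 FPKM in Ncad_marrow, 82.2 ± 8.47 in Cxcl12_RFP, 66.6 ± 16.4 in Ncad_bone, 62.5 ± 6.85 in Nestin_GFP, 60.7 ± 6.52 in Ng2_RFP, 54.1 ± 12 in Lepr and 26.2 ± 6.87 in Col2.3_GFP (SD). All stromal libraries lay between 17.2 and 120.0 FPKM, and none of the Pecam_GFP, MK and Mac libraries exceeded 6.29. Abca8b, a related neighbour that may share reads with it, ranked differently. It was 3.67 to 4.55 FPKM in Ng2_RFP, 1.82 to 3.25 in Col2.3_GFP and 1.75 to 2.94 in Ncad_bone. In Ncad_marrow, Lepr, Cxcl12_RFP and Nestin_GFP it was less than 1. Col2.3_GFP, the osteoblast reporter, had Abcb4 at 11.7, 17, 12 and 11.1 FPKM, more than in any other niche library, and Abcf1 at 139 ± 45.6 (SD), differences within the stroma that were not tested.

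N-cadherin reporter cells of bone and marrow differed in 6 members. Ncad_bone was higher than Ncad_marrow for 5 and lower for 1 of 37, against 14.7% and 9.95% of all genes. The one lower was Abcg2, 62.2, 69.6, 62.4 and 90.4 FPKM in bone and 111, 142, 141 and 146 in marrow, without overlap, at -0.93 ± 0.30 (SE; adjusted p = 0.0202); without Ncad_bone replicate 1 the adjusted p was 0.0564. Abca8b was 2.56, 2.16, 1.75 and 2.94 FPKM in bone and 0.91, 0.681, 0.896 and 0.968 in marrow (0.84 ± 0.13 SE, adjusted p = 1.02e-05), and Abcc4 2.23, 2.11, 2.41 and 1.6 and 0.209, 1.31, 0.527 and 0.796 (0.89 ± 0.20 SE, adjusted p = 0.000881). Both were separate between the groups. Abce1 (0.71 ± 0.18 SE, adjusted p = 0.00325), Abca2 (0.87 ± 0.26 SE, adjusted p = 0.0124) and Abcd2 (0.60 ± 0.20 SE, adjusted p = 0.0263) were higher in bone, but the Abca2 call ended without Ncad_bone replicate 2 (adjusted p = 0.138) or Ncad_marrow replicate 3 or 4, and that of Abcd2 under scaling (0.0725) and without Ncad_bone replicate 1 (0.157) or Ncad_marrow replicate 1, 2 or 3. Marker lists differed between the compartments as well. In bone 6 of 11 neutrophil, 5 of 10 erythroid and 4 of 11 HSPC markers were higher and none lower, and of 10 stromal markers 4 were higher and 1 lower. HSPC markers summed to between 113 and 243 FPKM in bone and between 23.6 and 84.3 in marrow, and erythroid markers to 575 to 4985 and 285 to 1180. Their part in the differences of the members was not tested. The other tested drug exporters, Abcb1a (-0.76), Abcb1b (0.31), Abcb4 (0.44), Abcc1 (0.27), Abcc2 (-0.02), Abcc3 (0.25), Abcc5 (-0.28) and Abcc10 (0.22), were not called.

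After 5FU Abcg2 was not called between the compartments. Here 25 members passed the filter, and 2 were higher and 3 lower in 5Fu_Ncad_bone than in 5Fu_Ncad_marrow, against 12.5% and 10.4% of all genes. Abcg2 was 54.3, 61.3 and 63.6 FPKM in bone and 36.3, 64.1 and 70.9 in marrow, overlapping, at 0.12 ± 0.25 (SE; adjusted p = 0.773). Abcc5 was 22.2, 16.1 and 14 FPKM in bone and 35.4, 32.7 and 32.5 in marrow, and Abcd2 3.58, 1.76 and 3.48 and 7.91, 9 and 6.62. Both were lower in every bone library, at -0.93 ± 0.18 (SE; adjusted p = 0.0129) and -1.19 ± 0.25 (SE; adjusted p = 0.016), and the Abcc5 call ended without 5Fu_Ncad_bone replicate 2 (adjusted p = 0.0551). Abca8b (0.80 ± 0.17 SE, adjusted p = 0.0178) and Abcc9 (0.56 ± 0.15 SE, adjusted p = 0.0401) were higher. Abcc9 was not called without any 1 of the 6 libraries, and Abca8b not without 5Fu_Ncad_marrow replicate 2 or 3. Marker lists differed here too. Macrophage markers summed to between 187 and 195 FPKM in bone and between 528 and 645 in marrow. In bone 1 of 5 macrophage and 2 of 5 megakaryocyte markers tested were lower and none higher. Of 5 HSPC markers 2 were higher and none lower, and of 10 stromal markers 5 were higher and 5 lower. The part of other cells in the differences of the members was not tested. Of the remaining drug exporters, Abcb1a (-0.60), Abcb1b (0.67), Abcc1 (-0.20) and Abcc10 (0.31) were tested and not called.

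Whether the difference between bone and marrow changed with 5FU was tested as an interaction over the joined tables, since levels are not comparable across tables whose joint normalization is not given. Of 30 members 2 had a higher and 3 a lower difference after 5FU, against 8.23% and 10.6% of all genes. The change was 1.04 ± 0.29 (SE; adjusted p = 0.0258) for Abcg2, 0.97 ± 0.31 (SE; adjusted p = 0.0436) for Abca8a, -1.80 ± 0.36 (SE; adjusted p = 0.00404) for Abcd2 and -0.94 ± 0.30 (SE; adjusted p = 0.0438) for Abcc4. Abcc4 did not pass the filter among the 5FU niche libraries, where it reached at most 1.003 FPKM, and entered the joined test through the untreated libraries alone. Abcd2 turned from higher to lower in bone and was called without each single library in turn. The part of other cells in that turn was not tested. The Abcg2 call ended without 5Fu_Ncad_bone replicate 2 (adjusted p = 0.0596) or 3 (0.061), and those of Abca8a and Abcc4 under most single omissions. The drug exporters Abcc5 (-0.65), Abcb1a (0.16), Abcb1b (0.37), Abcb4 (-0.58), Abcc1 (-0.47) and Abcc10 (0.09) were not called.

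**Figure D5:**
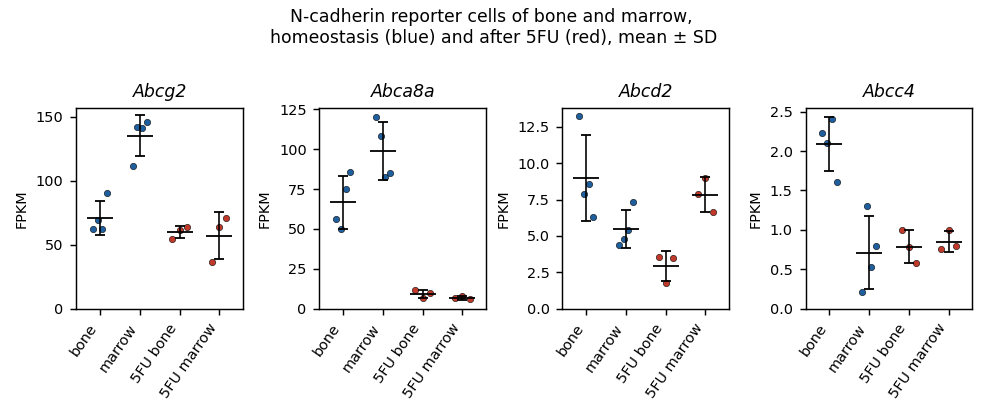
FPKM of 4 ABC genes in every library of N-cadherin reporter cells from bone and marrow, untreated (blue, n = 4 each) and after 5FU (red, n = 3 each), with mean and SD; the 2 colours come from separately deposited tables. Abcg2 is higher in marrow in the blue groups and overlaps in the red ones, and Abcd2 is higher in bone in blue and in marrow in red.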

How the data were processed

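FACS-sorted mouse cells were sequenced after ultra-low-input cDNA amplification and transposase library preparation, per the labels' protocols. Named in the submitters' processing notes are bcl2fastq 2.18, TopHat2 2.0.13, Cufflinks 2.2.1 and build mm10. The deposited values are FPKM, in 3 tables (HSPCs, untreated niche, niche after 5FU); whether the authors normalized them jointly, and the day of 5FU for niche cells, are not given in the sources used here. Genes with a missing value, 15, 28 and 4 in the 3 tables, were left out. Genes at 1 FPKM or more in at least 3 libraries were fitted on log2(FPKM + 1) with limma 3.58.1 (trend, two-sided, R 4.3.3), all groups of a table in 1 fit, and p-values were Benjamini-Hochberg adjusted over all tested genes. Scripts were tested on simulated data. Depth limits low values: the libraries' relative depth spans up to 5.70-fold, and absolute depth is unknown. Replicates are the samples that the labels list within a group. Replicate numbers did not pair samples.

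The members and lists were chosen with earlier results of these data known. Named were all drug exporters, and each other member called against Reserve, and in the niche up to 8 called members with the largest fold changes per comparison, with further members singled out after their values were seen; genes of the other lists were named after their values were seen. The alternatives were a pseudocount of 0.1, no filter, a mean of at least 5 FPKM, scaling by median of ratios, a fit of the compared groups alone, a replicate block and leaving out each library; list counts after scaling were added after seeing the data. Results of 2 members are not reported here by name, although counts over the members include them. Gene coordinates are from GENCODE M21 and promoters from RefSeq.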

Additional observations from a re-analysis of the deposited data

Results flagged for a closer look

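Of 196 groups of 4 or 6 libraries examined, 18 had 1 library far from the rest, and chance flags about 1 in 20 groups. Among HSPCs these were Reserve replicate 1 for Abcg2 (117 FPKM), Abcc4 (6.84) and Abca1 (2.48), MPP replicate 1 for Abcb8 (70.9) and MPP replicate 3 for Abca1 (2.02). Abcb1a stood apart in Col2.3_GFP replicate 4 (7.32 FPKM), Cxcl12_RFP replicate 1 (3.98), Lepr replicate 6 (7.01) and Nestin_GFP replicate 3 (5.98). Ncad_bone replicate 2 stood apart for Abca2 (5.06 FPKM) and Abcc1 (10.5). Abcg2 did so in Lepr replicate 6 (143 FPKM) and, as the lowest, in Ncad_marrow replicate 1 (111). The rest were Abca5 in Cxcl12_RFP replicate 2 (4.19 FPKM), Abcb4 in Col2.3_GFP replicate 2 (17.0), Abcc3 in Col2.3_GFP replicate 3 (2.47), Abcc4 in Lepr replicate 3 (3.79) and Abce1 in Mac replicate 4 (12.0).

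The difference between bone and marrow N-cadherin cells differed before and after 5FU, by limma's interaction term, for Abcd2 (-1.80 ± 0.36 SE, adjusted p = 0.00404), Abcg2 (1.04 ± 0.29 SE, adjusted p = 0.0258), Abca8a (0.97 ± 0.31 SE, adjusted p = 0.0436) and Abcc4 (-0.94 ± 0.30 SE, adjusted p = 0.0438). Abcc4 reached at most 1.003 FPKM in the 5FU niche libraries, did not pass the filter among them and entered the joined test through the untreated libraries alone. No cause of these values was tested.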

How the results depend on the processing

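No called value changed sign under any alternative. Of the values not called, 10 near 0 changed sign in some setting, none called there. Under scaling the log2 fold change of Abcb1b became 0.15 in MPP and 0.25 in Mac, that of Abcc1 in Mac 0.19 and that of Abcc4 in MPP 0.10; with a pseudocount of 0.1 that of Abcb1b in Mac was 0.0043. With 1 library left out, Abcb1b ran from -0.0022 to 0.14 in Primed, -0.25 to 0.045 in MPP and -0.090 to 0.088 in Mac, Abcc4 from -0.12 to 0.073 in ST and -0.20 to 0.0068 in MPP, Abcc1 from -0.12 to 0.37 in MK, Abcg2 from -0.18 to 0.30 between the 5FU niche cells, and the interaction from -0.069 to 0.21 for Abcc10 and -0.094 to 0.37 for Abcb1a. Of the members called against Reserve, the count of 1 in Primed became 0 with a pseudocount of 0.1, 2 without the filter and 0 to 2 with 1 library left out. The ST count of 5 became 2 at a mean of at least 5 FPKM, 3 with only the compared groups and 3 to 7 with 1 library left out. The MPP count of 15 became 8 at a mean of at least 5 FPKM, and the 5FuReserve count of 18 became 11 to 18 with 1 library left out, 11 without 5FuReserve replicate 2. At a mean of at least 5 FPKM, where fewer members are tested, the F test called 14 members, Pecam_GFP 10, Mac 12, MK 14 and Ncad_bone 2. After 5FU the bone-to-marrow count of 5 became 2 without the filter, 2 at a mean of at least 5 FPKM and 1 to 3 with 1 library left out; the interaction count of 5 became 3 under each of no filter, a mean of at least 5 FPKM and scaling, and 1 to 5 with 1 library left out. Other causes were not tested.

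Same-numbered replicates deviated together with correlations from -0.0947 to 0.0705, so the samples share only a number. A sample correlated best with its own number in 2 of 3 pairs for Primed, ST and the 5FU niche cells, 1 of 3 for 5FuReserve and 1 of 4 for MPP and the untreated N-cadherin cells. The fit with the replicate number as a block gave 2 calls for Primed, 1 for the 5FU niche cells and 2 for the interaction.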
